A study of Homo sapiens with 6 samples.

Results

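The genes described here are 48 human genes of the G2 phase and mitosis, measured in RPMI-8402 cells, an established line of T-cell acute lymphoblastic leukaemia. They were chosen by name for their role in mitotic entry, the spindle and its checkpoint, the kinetochore, chromosome segregation and cytokinesis, with no use of measured values. A probe of the array was assigned to a gene through its RefSeq accession, and the probe with the highest mean intensity stood for the gene. Of the 48 genes, 46 gave a tested probe, among 14481 tested genes of the 19699 that the array named in this way. All 46 probes were well above background on all 6 arrays. UBE2C was not analysed here, and the only probe of MYBL2 carried an outlier mark on 1 array, so that its values are given below without a place in the counts.

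Lentivirus had brought in a control construct or a hairpin (shRNA) directed at GATA3, labelled shGATA3, or at TCF7, which encodes the factor TCF1, labelled shTCF1. Cells that expressed EGFP were collected by sorting at 48 h, and each group held 2 arrays, each hybridised with Cy3-labelled cRNA from 100 ng of total RNA. Per the study's methods the control virus carried a non-targeting shRNA and EGFP took the place of the resistance gene, so that all 3 groups were transduced and sorted cells of 1 line. The methods name 1 hairpin construct for GATA3 and do not name that for TCF7. The comparison asked how transcript levels of the mitotic programme stood in these leukaemia cells 48 h after each hairpin was introduced.

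Transcripts of mitotic genes rise and fall with the cell cycle. In resting cells and in G1 the DREAM complex, built on the RB-related pocket proteins and the MuvB core, holds their promoters silent, and in G2 the MuvB core joins with MYBL2 (B-MYB) and FOXM1 to switch them on. In a dividing cell line, the summed level of these transcripts is widely read as a sign of how many cells are in G2 and mitosis. On bulk arrays, a smaller share of cells in G2 and mitosis and less RNA per such cell cannot be told apart.

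The promoters of these genes share short sequence elements that the choice of genes did not use. The cell cycle genes homology region (CHR), which the MuvB complexes bind, was searched as TTTGAA or TTCGAA on either strand, and the CCAAT box, bound by NF-Y, as CCAAT on either strand. RefSeq promoter windows of GRCh38.p14, from 250 bases before to 50 bases after the transcription start, were at hand for 41 of the 48 genes, as 51 windows. A CHR sequence was found in 34 of the 51 windows, or 66.7%, against 16.4% of all 35116 promoter windows. A CCAAT box was found in 38 windows, or 74.5%, against 34.6% of all windows, and both elements together in 29 windows, or 56.9%, against 6.38%. Some genes have several, partly overlapping windows, so the windows are not independent, and a match describes the letters and is not a measured binding site. No window was listed for BUB3, TTK, FOXM1, AURKA, BIRC5, TPX2 and UBE2C.

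Letters known to be bound by the targeted factors themselves were rare in these windows. The study reported that GATA3 binding in thymocytes lay mostly far from transcription starts, outside windows of this kind. Base composition was not accounted for, and whether the factors act on these genes was not tested. AGATAA or TGATAA, as bound by GATA factors, occurred in 1 of the 51 windows, or 1.96%, against 16.3% of all windows, and the single match was in a promoter of HMMR. CTTTGAT or CTTTGTT, as bound by TCF1 and its relatives, occurred in 1 window, or 1.96%, against 7.61%, and this match was in the promoter of KIF20A. CTTTGAT and the CHR sequence TTTGAA share the letters TTTGA but neither contains the other. The letters CTTTGAA, which contain that CHR sequence, were not searched, so the TCF1 share covers only CTTTGAT and CTTTGTT.

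The 4 promoters are printed to show the arrangement, those of PLK1, SGO1 and ANLN, which passed the test in the shTCF1 comparison described below, and that of CCNB2, which did not. Each runs 5′ to 3′ in the direction of transcription from 120 bases before to 10 bases after the start, with CHR and CCAAT letters in capitals.
PLK1 (chr16:23678769-23678898, plus strand): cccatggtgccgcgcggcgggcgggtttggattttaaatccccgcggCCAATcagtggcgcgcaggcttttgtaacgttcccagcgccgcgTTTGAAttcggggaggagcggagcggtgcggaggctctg
SGO1 (chr3:20186197-20186326, minus strand): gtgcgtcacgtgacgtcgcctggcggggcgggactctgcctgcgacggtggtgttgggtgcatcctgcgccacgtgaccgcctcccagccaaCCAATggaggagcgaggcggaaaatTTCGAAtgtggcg
ANLN (chr7:36389742-36389871, plus strand): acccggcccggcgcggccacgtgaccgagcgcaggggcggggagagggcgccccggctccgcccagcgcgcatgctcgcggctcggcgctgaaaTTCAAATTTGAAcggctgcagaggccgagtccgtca
CCNB2 (chr15:59105026-59105155, plus strand): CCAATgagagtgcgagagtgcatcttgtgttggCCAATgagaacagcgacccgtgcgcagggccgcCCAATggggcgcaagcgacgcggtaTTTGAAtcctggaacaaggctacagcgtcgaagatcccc
In PLK1 and CCNB2 alike the CHR begins 29 bases before the start, with CCAAT boxes further upstream. ANLN holds a CHR on each strand, 26 and 20 bases before the start, and no CCAAT box in its window. The window of MAD2L1, the other gene that passed the test, holds a CHR that begins 24 bases past the start and a CCAAT box on the other strand 229 bases before it.

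The targeted genes were read before the comparisons. TCF7 measured 13.96 and 13.91 on the control arrays and 12.58 and 12.68 on the shTCF1 arrays (normalized log2 intensity), a change of -1.31 (limma, adjusted p = 0.00393), so that it was lower by 2.47-fold where its hairpin was expressed. GATA3 measured 9.54 and 9.56 on the control arrays and 9.46 and 9.55 on the arrays labelled shGATA3, and its change of -0.05 (95% interval -0.31 to 0.21) did not pass the test. Against control, the arrays labelled shGATA3 therefore carry that name on the labels alone at the level of GATA3 transcript. Every direction given for them refers to the label. Between the hairpins GATA3 had -0.33 in shGATA3 minus shTCF1 (limma, adjusted p = 0.136). In shTCF1 against control it had 0.28 (adjusted p = 0.122). Neither passed. All 7 T-lymphoblast markers examined were above background on every array. Of these, CD2 was called in every comparison (-0.47 in shGATA3, -2.19 in shTCF1 and 1.72 between the hairpins) and CD3G was called in shTCF1 (0.63). CD33, a defining marker of myeloid cells, was above background on none. Of 3 measured markers each, 2 of myeloid cells and 2 of the embryonic kidney cells used to produce lentivirus gave signal above background on all arrays. In the limma fit none of the tested myeloid and kidney cell markers was called in any comparison, and in shTCF1 against control 1 kidney cell marker had an unadjusted p under 0.05. The part of these markers in the results was not tested.

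All 6 arrays lay on 1 slide and were scanned together. The 4 hairpin arrays occupied the first row of the slide and both control arrays the second row, so slide row and hairpin against control cannot be told apart. The 75th percentile of the background-corrected intensity was 271 and 290 on the control arrays and 166 to 179 on the hairpin arrays, a gap that normalization removed for the bulk of probes and whose part in the results was not tested.

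As a set, the mitotic genes stood close to where they were in control cells under either hairpin. The median log2 change over the 46 genes was -0.022 in the shGATA3 group and -0.035 in the shTCF1 group, against -0.033 and -0.048 over all 14481 tested genes. Between the hairpin groups, shGATA3 minus shTCF1, the median was 0.057 against 0.0035 over all genes. The signs were mixed, with 21 genes above and 25 below the control mean in the shGATA3 group, and 19 above and 27 below in the shTCF1 group.

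Array by array, the deviation of the 46 genes from each gene's own mean had a median of 0.011 and 0.017 on the control arrays. It was 0.0034 and 0.022 on the shGATA3 arrays and -0.12 and 0.043 on the shTCF1 arrays. The shTCF1 arrays thus lay on either side of all other arrays, and the sign of the group median rested on shTCF1 replicate 1, since the median change was 0.039 without that array and -0.13 without shTCF1 replicate 2. The 24 genes of a DNA replication list gave -0.11 and 0.047 on the same 2 shTCF1 arrays. Over all tested genes these medians were -0.049 and 0.016.

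Gene by gene, 0 of 46 genes passed the test in the shGATA3 group, and 8 had an unadjusted p under 0.05, 2 higher and 6 lower than in control. Over all tested genes, 2.77% were called higher and 4.16% lower in that comparison, a call being an adjusted p under 0.05 in the limma fit. In the shTCF1 group 1 gene was higher and 3 were lower, where 6.25% and 10.0% of all tested genes were called in these directions. Between shGATA3 and shTCF1, again 0 of 46 genes passed, 4 had an unadjusted p under 0.05, and 3.78% of all tested genes were called higher and 2.82% lower. In the fit reported, the share of mitotic genes that passed was below that of all genes in each comparison. It was 0% against 6.93%, 8.70% against 16.3% and 0% against 6.60%. This order depended on the processing. With normexp background correction and quantile normalization, 13 of 46 mitotic genes and 7726 of 31134 probes were called in shTCF1. With an intensity trend in the spread, 6 of 46 and 3912 of 31134 were called in shGATA3. There the mitotic share was not below that of all probes, and in the other comparisons under these settings it was.

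The sizes of the changes were small as well. The median size of the change, without its sign, was 0.13 in the shGATA3 group and 0.15 in the shTCF1 group on the log2 scale, against 0.19 and 0.23 over all tested genes. A change of more than 0.5 in either direction was found for 0 and 4 of the 46 genes, or 0% and 8.70%, against 12.7% and 17.7% of all tested genes. Across the 6 arrays the range of a mitotic gene ran from 0.13 for BUB1 to 1.03 for INCENP with a median of 0.32, and the median range over all tested genes was 0.49. These are descriptions of the list beside all tested genes and no test of the list was made.

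**Figure D1:**
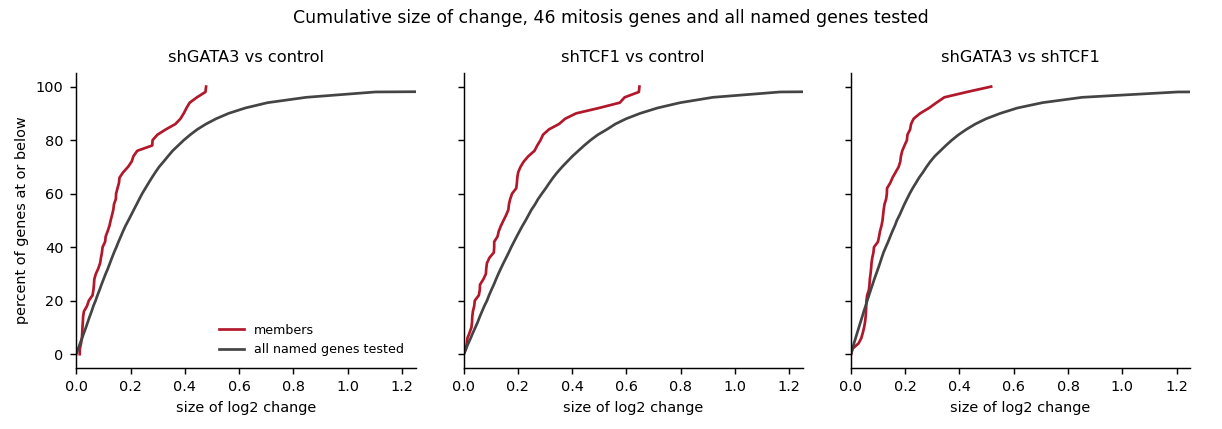
Cumulative share of genes (vertical axis, percent) by size of the log2 change (horizontal axis) in the 3 comparisons, for the 46 tested mitosis genes (red) and all 14481 named genes tested (grey). The red curves reach 50% at 0.13, 0.15 and 0.12, and the grey curves at 0.19, 0.23 and 0.17. The red and grey sets were not matched for intensity.

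The intervals describe the brightest probe of each gene and measure the spread between these arrays, which may be technical. With 95% intervals of typically 0.28 on either side, the interval lay within a 2-fold change in either direction for 45 of 46 genes in the shGATA3 comparison, for 46 in the shTCF1 comparison and for 45 between the hairpins, and INCENP was the exception in the first and the last. Within a 1.5-fold change in either direction lay 37, 38 and 40 genes. Other probes of a gene can reach further. A dimmer CKAP2 probe, described below, had intervals that reached past 2-fold, at -1.23 to -0.42 in shGATA3 and -1.10 to -0.30 in shTCF1.

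**Figure D2:**
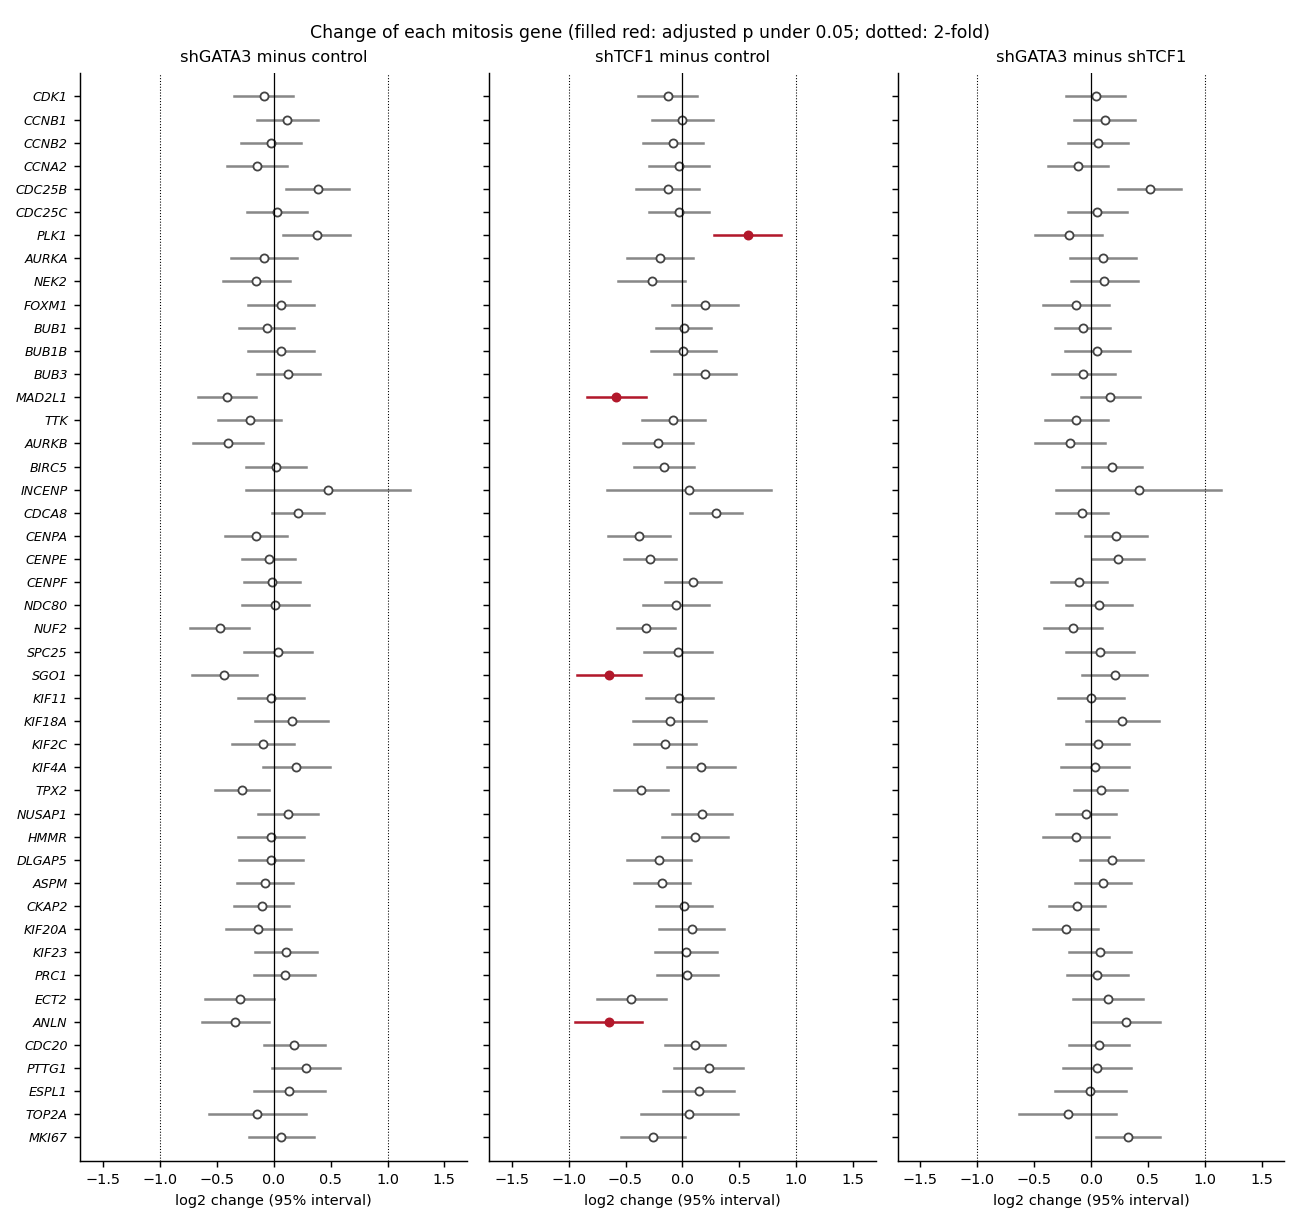
Log2 change (horizontal axis, points) of each of the 46 tested mitosis genes with its 95% interval from the limma fit (lines), for shGATA3 minus control, shTCF1 minus control and shGATA3 minus shTCF1. Filled red points mark an adjusted p under 0.05, found for PLK1, MAD2L1, SGO1 and ANLN in the middle panel and for no gene in the others, and dotted lines mark a 2-fold change.

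Genes of mitotic entry were led by CDK1 and its cyclins, the kinase that drives cells into mitosis. CDK1 measured 12.68 and 12.68 on the control arrays, 12.52 and 12.65 on the shGATA3 arrays and 12.49 and 12.60 on the shTCF1 arrays. The control arrays were the highest, yet the changes of -0.09 (95% interval -0.35 to 0.17) and -0.13 (-0.39 to 0.13) did not pass the test (adjusted p = 0.619 and 0.415). CCNB1, the main mitotic cyclin, measured 12.81 and 12.78 in control, 12.84 and 12.99 in shGATA3 and 12.72 and 12.86 in shTCF1. The shTCF1 arrays enclosed the control arrays, and the changes were 0.12 (-0.15 to 0.39) and -0.0013 (-0.27 to 0.27).

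CCNB2, the second B-type cyclin, measured 13.93 and 13.91 in control, 13.87 and 13.91 in shGATA3 and 13.74 and 13.93 in shTCF1. Its groups overlapped in every comparison. CCNA2, the cyclin of S and G2 phase, measured 10.54 and 10.42 in control, 10.30 and 10.37 in shGATA3 and 10.39 and 10.51 in shTCF1, with changes of -0.15 (-0.41 to 0.12) and -0.03 (-0.29 to 0.23). For the brightest probes of these 4 genes, which form the core of the mitotic kinase, the 95% intervals against control stayed within a change of 0.41 on the log2 scale in either direction. A second, dimmer CCNB1 probe gave -0.26 in shTCF1 (95% interval -0.55 to 0.03, limma adjusted p = 0.177) and -0.02 in shGATA3.

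PLK1, the polo-like kinase that promotes mitotic entry and spindle assembly, was the only gene of the 46 called higher, and this in shTCF1 alone. It measured 9.70 and 9.47 on the control arrays, 9.96 and 9.97 on the shGATA3 arrays and 10.09 and 10.23 on the shTCF1 arrays. Both hairpin groups lay above both control arrays. The shTCF1 group was higher by 0.57 on the log2 scale (95% interval 0.28 to 0.87, adjusted p = 0.0297), or 1.49-fold, and the shGATA3 value of 0.38 (0.08 to 0.67) did not pass (adjusted p = 0.119). The difference between the hairpins was -0.20 (-0.49 to 0.10, adjusted p = 0.382), so the passing of one and not the other does not show that they differ. A second, dimmer PLK1 probe gave 0.17 in shTCF1 (adjusted p = 0.312).

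Of the other mitotic kinases and phosphatases, AURKA, which matures the centrosomes, measured 11.85 and 11.76 in control, 11.73 and 11.71 in shGATA3 and 11.49 and 11.73 in shTCF1. Both hairpin groups were below both control arrays, with changes of -0.09 and -0.20, and neither passed (adjusted p = 0.675 and 0.287). CDC25B, a phosphatase that activates CDK1, measured 12.14 and 12.08 in control, 12.55 and 12.44 in shGATA3 and 11.89 and 12.07 in shTCF1. It was the mitotic gene whose hairpin groups stood furthest apart by adjusted p, with a difference of 0.52 (0.24 to 0.79) that narrowly missed the threshold (adjusted p = 0.0570). CDC25C and NEK2 completed the group of 9, in which PLK1 alone passed. In shTCF1 this was 11.1% of the group against 16.3% of all tested genes.

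**Figure D3:**
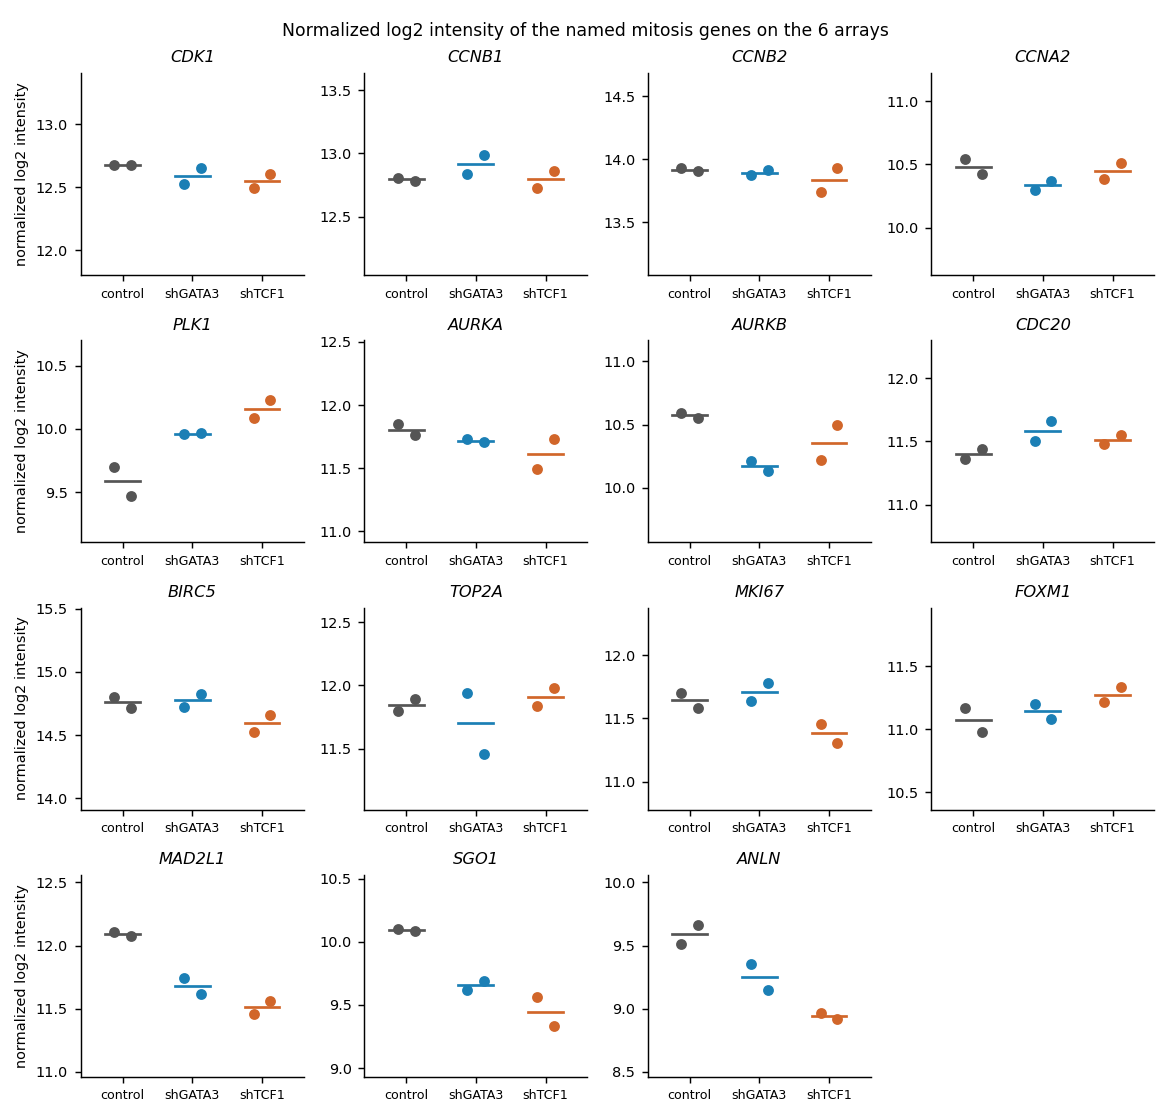
Normalized log2 intensity (vertical axis, 1.6 log2 units in every panel) of 15 mitosis genes on the 2 control (grey), 2 shGATA3 (blue) and 2 shTCF1 (orange) arrays, with bars at the group means. PLK1 lies higher and MAD2L1, SGO1 and ANLN lie lower on the hairpin arrays, and in CCNB2 and TOP2A the groups overlap.

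The transcription factors that drive the programme did not pass. FOXM1, the forkhead factor of G2 genes, measured 11.17 and 10.98 in control, 11.20 and 11.08 in shGATA3 and 11.21 and 11.33 in shTCF1. Its changes were 0.07 (-0.22 to 0.36) and 0.20 (-0.09 to 0.49). For MYBL2 the probe on shTCF1 replicate 1 was marked as an outlier, and the remaining arrays gave 11.56 and 11.52 in control, 11.16 and 11.07 in shGATA3 and 11.37 in shTCF1. Both shGATA3 arrays lay below both control arrays. In a fit chosen after the data were seen, with the marked array missing, MYBL2 changed by -0.42 in shGATA3 (95% interval -0.69 to -0.15, adjusted p = 0.0877) and, on 1 array, by -0.16 in shTCF1 (adjusted p = 0.419), and neither passed.

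The spindle assembly checkpoint holds anaphase back until every chromosome is attached. MAD2L1, which encodes the checkpoint protein MAD2 that inhibits CDC20, measured 12.11 and 12.08 in control, 11.74 and 11.62 in shGATA3 and 11.46 and 11.57 in shTCF1. All 4 hairpin arrays were below both control arrays. It fell by 0.58 on the log2 scale in shTCF1 (95% interval -0.84 to -0.32, adjusted p = 0.0207), to 0.669 of the control level, and its shGATA3 value of -0.41 (-0.67 to -0.15) did not pass (adjusted p = 0.0746). The hairpins differed by 0.17 (-0.09 to 0.43), which did not pass (adjusted p = 0.384).

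The partners of MAD2L1 did not pass with it. BUB1 and BUB1B, the checkpoint kinase and its relative BUBR1, had shTCF1 changes of 0.01 (95% intervals -0.23 to 0.25 and -0.28 to 0.30), BUB3, their binding partner, 0.20 and TTK, the kinase MPS1, -0.08. A second, dimmer BUB3 probe gave -0.29 in shTCF1 (limma adjusted p = 0.133). In all, 1 of 5 checkpoint genes was called lower in shTCF1, where 10.0% of all tested genes were. In shGATA3 0 of 5 passed, against 6.93% of all tested genes. Counts this small cannot be told from these shares.

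The chromosomal passenger complex corrects faulty attachments and guides cytokinesis. AURKB, its kinase, measured 10.59 and 10.55 in control, 10.21 and 10.13 in shGATA3 and 10.22 and 10.50 in shTCF1. The hairpin arrays lay below both control arrays, and the shGATA3 value of -0.40 (-0.71 to -0.10) did not pass (adjusted p = 0.114). BIRC5, which encodes survivin, measured 14.80 and 14.72 in control, 14.73 and 14.83 in shGATA3 and 14.52 and 14.66 in shTCF1. INCENP, the scaffold, measured 9.65 and 10.56 on the shGATA3 arrays against 9.67 and 9.58 in control and 9.53 and 9.85 in shTCF1, so shGATA3 replicate 2 stood apart from the other 5 arrays and set its wide interval of -0.24 to 1.20. CDCA8, which encodes borealin, had a shTCF1 value of 0.29 (adjusted p = 0.0815), and 0 of the 4 genes passed in any comparison. Over all tested genes 6.93% passed in shGATA3, 16.3% in shTCF1 and 6.60% between the hairpins.

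Of 7 kinetochore genes 6 had values below control in shTCF1, with a median change of -0.28, and 1 passed. Over all tested genes 8066 of 14481 lay below control there, with a median of -0.048, and 16.3% passed. SGO1, which encodes shugoshin, the protector of centromeric cohesion, measured 10.10 and 10.08 in control, 9.62 and 9.69 in shGATA3 and 9.56 and 9.33 in shTCF1. All hairpin arrays lay below both control arrays. It fell by 0.65 on the log2 scale in shTCF1 (95% interval -0.93 to -0.36, adjusted p = 0.0207) and had -0.44 in shGATA3 (adjusted p = 0.0816). NUF2, a subunit of the NDC80 complex that grips microtubules, measured 11.04 and 11.16 in control, 10.67 and 10.58 in shGATA3 and 10.75 and 10.82 in shTCF1. Its shGATA3 value of -0.48 (-0.73 to -0.22) was the nearest to the threshold of that comparison (adjusted p = 0.0537). NDC80 and SPC25, which encode further subunits, had values of 0.01 and 0.04 there, and SPC24 is described below. CENPA, the centromeric histone H3 variant, had -0.38 in shTCF1 (adjusted p = 0.0669), and CENPE, the kinetochore kinesin, had -0.28 (adjusted p = 0.0897).

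Of the 10 spindle and kinesin genes, 0 passed in any comparison, against 6.93%, 16.3% and 6.60% of all tested genes. TPX2, the spindle assembly factor that activates AURKA, came nearest, with 12.62 and 12.62 in control, 12.36 and 12.32 in shGATA3 and 12.22 and 12.29 in shTCF1 and a shTCF1 value of -0.36 (-0.60 to -0.13, adjusted p = 0.0513). The motor KIF11, whose protein is Eg5, had -0.03 in both hairpin groups. On their brightest probes its relatives KIF18A, KIF2C and KIF4A lay between -0.15 and 0.20 against control. A second, dimmer KIF4A probe gave -0.33 in shGATA3 and -0.54 in shTCF1, and neither passed (limma adjusted p = 0.236 and 0.0635).

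Among 5 cytokinesis genes ANLN, which encodes the contractile ring scaffold anillin, measured 9.51 and 9.67 in control, 9.36 and 9.15 in shGATA3 and 8.97 and 8.92 in shTCF1. The 3 groups did not overlap, with shTCF1 lowest. It fell by 0.65 on the log2 scale in shTCF1 (95% interval -0.94 to -0.35, adjusted p = 0.0219), to 0.638 of control, and its shGATA3 value was -0.34 (adjusted p = 0.146). ECT2, the exchange factor that activates RhoA at the cleavage site, had -0.45 in shTCF1 (adjusted p = 0.0589). PRC1, KIF23 and KIF20A, which build the central spindle, had shTCF1 values of 0.04, 0.03 and 0.08.

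Genes of anaphase and of the mitotic chromosome had 0 of 5 passing, against 6.93%, 16.3% and 6.60% of all tested genes. CDC20, the activator of the anaphase-promoting complex, measured 11.36 and 11.44 in control, 11.50 and 11.66 in shGATA3 and 11.48 and 11.55 in shTCF1. The hairpin arrays lay above both control arrays by 0.18 (-0.08 to 0.45) and 0.11 (-0.15 to 0.38) on average. PTTG1, which encodes securin, the inhibitor of separase, had 0.28 and 0.23, and ESPL1, which encodes separase, 0.14 and 0.14. TOP2A, the topoisomerase that untangles chromosomes, measured 11.80 and 11.89 in control, 11.94 and 11.46 in shGATA3 and 11.83 and 11.98 in shTCF1, and its lowest and second highest values both came from the shGATA3 group. MKI67, which encodes the proliferation marker Ki-67, measured 11.70 and 11.58 in control, 11.64 and 11.78 in shGATA3 and 11.46 and 11.31 in shTCF1. Its shTCF1 value of -0.26 (-0.54 to 0.02) did not pass (adjusted p = 0.170).

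Array groups were fully separated for 27 of 46 genes, or 58.7%, in each hairpin against control. This compares with 63.0% of all tested genes for shGATA3 and 69.2% for shTCF1. Between the hairpins it was 24 genes, or 52.2%, against 53.4% of all tested genes. Since both comparisons with control share the same 2 control arrays, a common direction of PLK1, MAD2L1, SGO1 and ANLN under the hairpins is not independent evidence.

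Several genes were read by more than 1 probe. Of the 46 genes, 35 had 1 probe, 10 had 2 and 1 had 3, which gave 12 further probes for 11 genes. Of the 12, 6 had the opposite sign to the brightest probe in each comparison with control. The further probe had the lower change of the pair for 10 of the 12 in shGATA3 and for 8 in shTCF1. A further SGO1 probe, which named another SGO1 transcript, measured 7.10 and 7.12 in control, 7.47 and 7.54 in shGATA3 and 7.20 and 7.18 in shTCF1. Its shGATA3 arrays lay above both control arrays where the brightest probe had them below, with values of 0.39 (adjusted p = 0.0656) and 0.08.

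Among the 12, 2 further probes were called, both lower. That of CKAP2, a spindle protein gene, fell by 0.82 in shGATA3 (adjusted p = 0.0425) and by 0.70 in shTCF1 (adjusted p = 0.0391), where the brighter probe had -0.11 and 0.02. It measured 8.55 and 8.24 in control, 7.74 and 7.40 in shGATA3 and 7.65 and 7.73 in shTCF1. The second MKI67 probe fell by 0.62 in shTCF1 (adjusted p = 0.0425), and the third had 0.0037. Averaging all probes of a gene left 2 genes called in shTCF1, ANLN and MAD2L1, each with a single probe. The median change of the 46 genes was then -0.083 in shTCF1 and -0.029 in shGATA3, against -0.035 and -0.022 with the brightest probes.

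**Figure D4:**
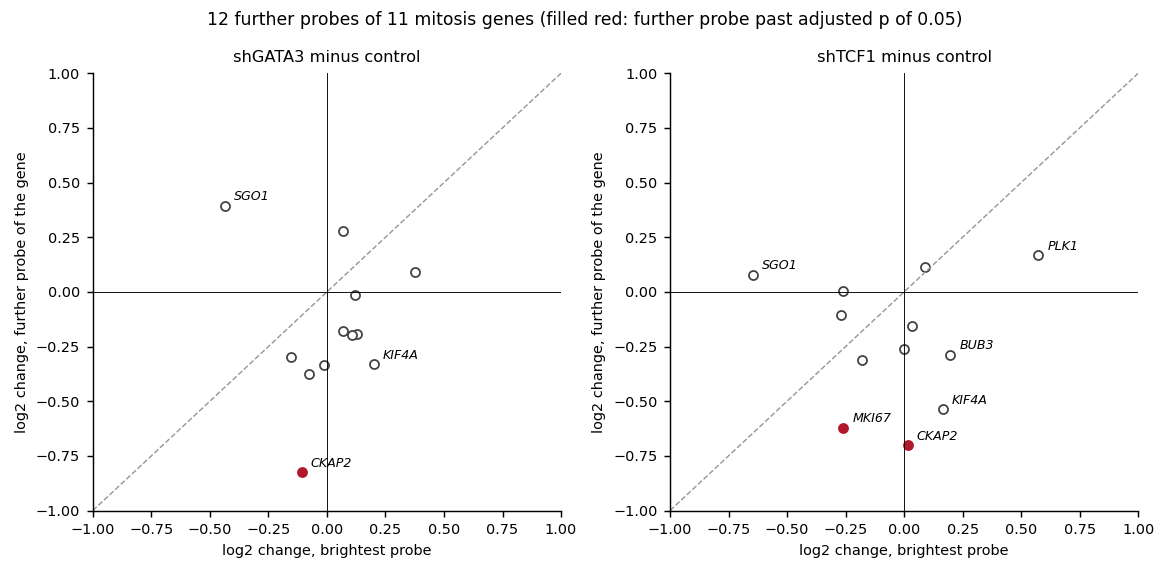
Log2 change of the 12 further probes (vertical axis) against the brightest probe of the same gene (horizontal axis) for shGATA3 minus control and shTCF1 minus control, with the dashed line at equal change. The filled red points are further probes with an adjusted p under 0.05, which are CKAP2 in both panels and MKI67 on the right, and SGO1 lies left of and above 0 in both.

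Leaving out 1 array at a time bore on the 4 calls in shTCF1. They numbered 0 without control replicate 1, 0 without control replicate 2 and 0 without shTCF1 replicate 2. SGO1 alone was called without shTCF1 replicate 1. Without either shGATA3 array all 4 were called along with ECT2, and no direction of the 4 genes was turned by leaving out an array.

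Mitotic genes outside the 48 were read from 5 further lists, of condensin and cohesin, the anaphase-promoting complex, other kinetochore genes, other spindle and cytokinesis genes and other regulators of mitotic entry. Together 85 of 86 were tested, of which 1 was called higher and 11 lower in shTCF1, and 1 higher and 1 lower in shGATA3. These shares of 14.1% and 2.35% lie below the 16.3% and 6.93% of all tested genes called in the same comparisons. Their median change was -0.11 in shTCF1 and -0.063 in shGATA3. Between the hairpins 0 of 85 were called, and 10 had an unadjusted p under 0.05.

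The called genes with the largest changes were kinetochore genes, of which 1 of 27 was called higher and 5 lower in shTCF1. This was 22.2% of the list against 16.3% of all tested genes. In shGATA3 it was 7.41% against 6.93%. CENPI, a constitutive centromere protein gene, measured 7.63 and 7.61 in control, 6.83 and 6.89 in shGATA3 and 6.65 and 6.21 in shTCF1. It fell by 1.19 on the log2 scale in shTCF1 (95% interval -1.58 to -0.79, adjusted p = 0.0107) and by 0.75 in shGATA3 (-1.15 to -0.36, adjusted p = 0.0494). SPC24, which encodes the NDC80 complex subunit that pairs with SPC25, measured 7.08 and 7.35 in control, 7.79 and 7.99 in shGATA3 and 7.77 and 7.92 in shTCF1. It rose by 0.67 in shGATA3 (adjusted p = 0.0469) and by 0.63 in shTCF1 (adjusted p = 0.0343), the opposite way to NUF2 of the same complex. The shGATA3 call of SPC24 held in no fit with 1 array left out, and that of CENPI held only where a shTCF1 array was left out. In shTCF1 the SPC24 call held only where a shGATA3 array was left out, and the CENPI call was lost only without control replicate 1. KNL1, CENPC, CENPL and CENPQ made up the rest of the called kinetochore genes and fell by 0.46 to 0.56 in shTCF1.

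The lists of chromosome structure and proteolysis also had calls in shTCF1 and in no other comparison, though the difference between the hairpins did not pass for any of them. The shares called, 12.5% of condensin and cohesin genes and 17.6% of the anaphase-promoting complex, are near the 16.3% of all tested genes. SMC2, a core subunit of condensin, measured 11.58 and 11.63 in control and 10.97 and 11.04 in shTCF1 and fell by 0.60 (adjusted p = 0.0156), and NCAPG, another condensin gene, was the other of 2 called of 16. ANAPC1, the largest subunit of the anaphase-promoting complex, measured 11.65 and 11.65 in control and 11.08 and 11.19 in shTCF1 and fell by 0.51 (adjusted p = 0.0467), as did ANAPC4 and CDC27, with 3 of 17 called. KIF20B, a kinesin of cytokinesis, measured 10.19 and 10.10 in control and 9.52 and 9.50 in shTCF1 and fell by 0.64 (adjusted p = 0.0149), the only call of 14 in its list (7.14%). With 1 array left out, the calls of SMC2, ANAPC1 and KIF20B held only where that was a shGATA3 array. Of 11 other regulators of mitotic entry 0 passed, and 5 had an unadjusted p under 0.05.

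**Figure D5:**
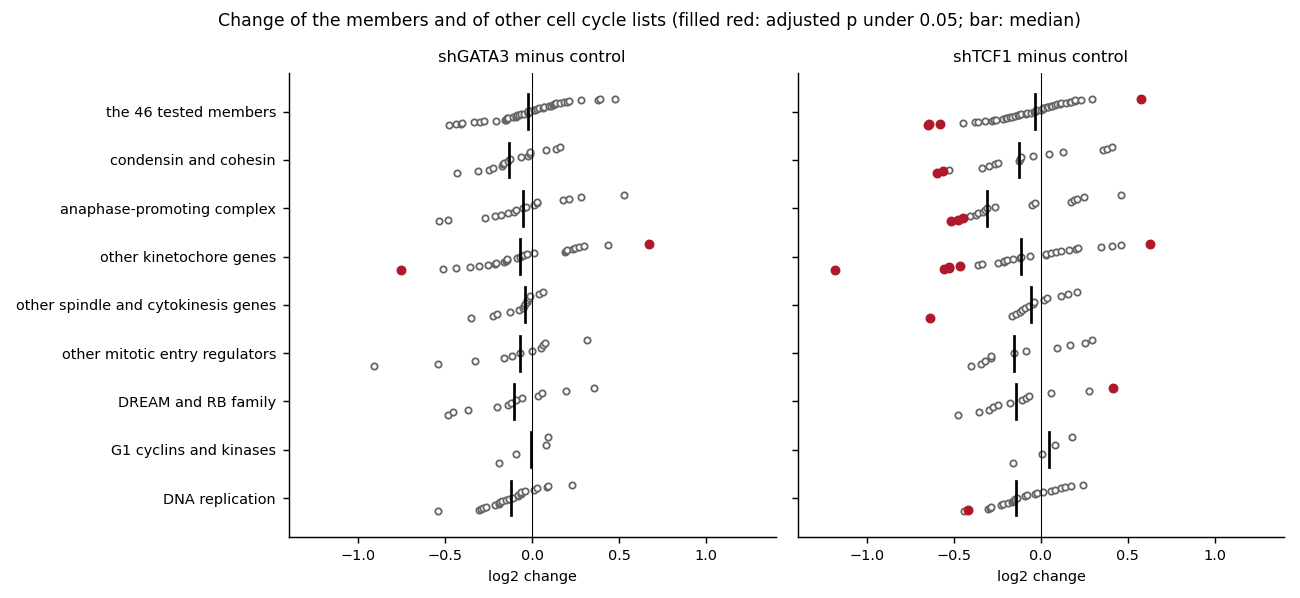
Log2 change (horizontal axis) of the 46 tested mitosis genes and of the genes of 8 other cell cycle lists, 1 point per gene, for shGATA3 minus control and shTCF1 minus control, with a black bar at each median. Filled red points mark an adjusted p under 0.05, of which shGATA3 has SPC24 and CENPI alone, and the median of the anaphase-promoting complex lies at -0.31 in shTCF1.

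Upstream of mitosis, few cell cycle genes passed. In shTCF1 8.33% of the DREAM and RB family and 4.17% of the DNA replication genes were called, against 16.3% of all tested genes. In shGATA3 0 genes of either list were called, against 6.93% of all tested genes. Of 12 genes of the DREAM and RB family, LIN52, a MuvB core subunit, measured 7.43 and 7.33 in control and 7.75 and 7.84 in shTCF1 and rose by 0.41 (adjusted p = 0.0494). Of 24 DNA replication genes RRM1, the large subunit of ribonucleotide reductase, measured 13.68 and 13.66 in control and 13.19 and 13.31 in shTCF1 and fell by 0.42 (adjusted p = 0.0465), and their median was -0.14 in shTCF1 and -0.12 in shGATA3. The calls of LIN52 and RRM1 held in no fit with 1 array left out. None of 4 measured G1 cyclins and kinases was called by limma, and 0 had an unadjusted p under 0.05.

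Cell cycle inhibitors held the largest change of the lists examined. Of 11 tested, 2 were called higher and 1 lower in shTCF1, or 27.3%, against 16.3% of all tested genes. In shGATA3 1 was called higher, or 9.09% against 6.93%. There 10 of 11 lay above control with a median change of 0.24, against 6570 of 14481 and -0.033 over all tested genes. In shTCF1 6 lay above and 5 below, with a median of 0.038. Between the hairpins 2 were called higher, or 18.2% against 6.60%. GADD45G, a stress sensor gene whose protein inhibits the CDK1 and cyclin B complex, measured 6.83 and 7.12 in control, 11.27 and 11.36 in shGATA3 and 5.08 and 5.56 in shTCF1. It rose by 4.34 in shGATA3 (adjusted p = 0.00134) and fell by 1.66 in shTCF1 (adjusted p = 0.00775), and the hairpins differed 63.8-fold (adjusted p = 0.000252), and the values of CDK1 and CCNB1 are given above. CDKN2A, whose products include p16, measured 9.77 and 9.82 in control, 10.13 and 9.80 in shGATA3 and 10.59 and 10.45 in shTCF1 and rose by 0.73 in shTCF1 (adjusted p = 0.0243). With 1 array left out, the CDKN2A call held only where that was a shGATA3 array. CDKN1A, the p53 target p21, had 0.22 in shTCF1 (adjusted p = 0.441) and 0.03 in shGATA3.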

How the data were processed

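Values are those of 6 arrays of a custom 1-colour Agilent design, 2 per group by title. The deposited scanner files give an intensity for each spot, corrected for background by Feature Extraction 10.7.1.1 (9.1 in the submitters' processing notes) and unscaled between arrays. A second deposited table, of log2 values that the authors' methods call VSN-normalized, was used as an alternative. Its scale and centring are not stated, its column medians were 4.94 to 5.11, and the second control column correlated at 0.733 with its own array against 0.990 to 0.999 for the others. Since 2 of the 6 columns correlated best with the array they are named for, the identity of its columns is doubtful. The number of arrays limits the precision.

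Control spots and spots marked as outliers were left out (71 probes) and spots of a probe averaged. Intensities were normalized with the VSN model (asinh of an offset and scaled intensity, trimming quantile 0.9, 7 iterations, 5 strata), written anew in R 4.3.3 and tested on simulated data, and are on a log2 scale. A probe was tested if well above background on both arrays of a group (31134 probes). A single limma 3.58.1 fit of group means to the 6 arrays, VSN and limma being the study's tools, gave changes, two-sided p-values and Benjamini-Hochberg adjustment over all tested probes, with 3 residual and 2.97 prior degrees of freedom. An exact permutation test of 2 against 2 arrays cannot go below p = 0.333. The study describes the arrays as independent experiments. The labels name no separate cultures, so p-values measure the spread between these arrays, which may be technical.

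Accessions were matched to a RefSeq table of GRCh38.p14. The array design names hg19, so promoter coordinates come from the RefSeq table alone. Member genes, lists, tests and alternatives were chosen with earlier results of these data known, although the rule for the members names genes by role and uses no measured value. Per-array values are given for 13 core mitosis genes fixed by name (CDK1, CCNB1, CCNB2, CCNA2, PLK1, AURKA, AURKB, CDC20, BIRC5, TOP2A, MKI67, FOXM1 and MYBL2) and for every member called. Of each other list, the called genes with the largest rise and fall in each comparison are named, with GATA3 and TCF7 always. Further genes, such as CDC25B, INCENP, NUF2 and TPX2, were named after their values were seen. Some marker genes are not reported here.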

Additional observations from a re-analysis of the deposited data

How the results depend on the processing

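In the shGATA3 comparison 0 mitosis genes were called in the fit reported and 6 with normexp background correction of the raw signal followed by quantile normalization, 6 with an intensity trend in the spread and 1, NUF2, with probes well above background on all arrays. Over the whole array, the probes called there rose from 2130 to 4280 and 3912 under the first 2 settings and fell to 560 with no filter on dim probes and to 1328 with the replicate block. The 6 genes were AURKB, CDC25B, MAD2L1, NUF2, PLK1 and SGO1 under both settings. In the shTCF1 comparison 4 were called as reported, 13 with normexp, 10 with the trend, 7 with probes above background on all arrays, 2 with the mean over a gene's probes, 1 (MAD2L1) with no filter on dim probes and 0 with the deposited matrix. Probes called over the whole array were 5274, 7726 with normexp, 7343 with the trend, 2272 with no filter and 0 with the deposited matrix. Between the hairpins 0 became 1, CDC25B, with quantile normalization, normexp, the trend and probes above background on all arrays.

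Without 1 array the calls were 0 to 0, 0 to 5 and 0 to 0 in the shGATA3, shTCF1 and between-hairpin comparisons, and the median changes were -0.036 to 0.0014, -0.13 to 0.039 and -0.030 to 0.12. With the replicate block, the mitosis genes called were 0, 3 and 0, PLK1 being the call lost, and the medians were unchanged. Same-numbered arrays did not deviate together over all tested probes (correlations of -0.040, -0.0098 and 0.049). With 2 arrays a group this cannot exclude a shared culture that affects some genes, and the labels give only the number. With the deposited matrix, the median change of the mitosis genes was 0.35 in shGATA3 and 0.43 in shTCF1, and MAD2L1 (2.59), ANLN (2.00), ANAPC1 (2.47), KIF20B (1.99) and CENPI (0.75 in shGATA3 and 0.092 in shTCF1) turned positive without passing the test. With its second control column left out, chosen after seeing the data, the medians were -0.052 and -0.13, with 0 genes called. The 75th percentile scaling turned the medians of shGATA3 and shTCF1 to 0.028 and 0.013, with 0 and 4 genes called. A fit with slide or scan as a block could not be run, since all arrays share them. Where the cause of a change in calls is not given by the setting itself, the cause was not tested.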
